A study of Mus musculus with 6 samples.

Results

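The genes described here are the subunits of the transcription factor AP-1 and a few other immediate early genes: Jun, Junb, Jund, Fos, Fosb, Fosl1, Fosl2, Egr1, Myc and Ier3. They were chosen by name, matched on the gene symbol of the count table, and all 10 were found among its 54532 genes. The samples were livers of mice aged 5 weeks, 3 libraries labelled Ctrl and 3 labelled Fam210aHKO, in which Fam210a was knocked out in hepatocytes. FAM210A is a protein of the inner mitochondrial membrane. The comparison asks how the juvenile liver's gene expression differs when hepatocytes lack it. The genotype labels of Fam210aHKO replicates 2 and 3 name other gene numbers, so groups follow the sample titles. The sources used here do not give strain, sex, the Cre line or the exact genotype of the controls. The labels number the libraries within each group without saying that each is a separate animal, so p-values measure the spread between these libraries, which may be partly technical.

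AP-1 is a dimer of basic leucine zipper proteins. JUN proteins pair with each other or with FOS proteins, whereas FOS proteins need a JUN partner to bind DNA. Immediate early genes are transcribed within minutes of a growth factor or stress signal, without new protein synthesis, and their messages are short-lived. In liver they are known for their rapid rise after partial hepatectomy or injury, and c-JUN is needed for normal regeneration. EGR1 is a zinc finger factor, MYC a basic helix-loop-helix factor that drives ribosome production and growth, and IER3 a small protein that modulates cell survival and ERK signalling.

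RefSeq promoter windows (GRCm38.p6, 250 bases before to 50 after the annotated start) were matched for 7 of the 10 genes: Jun, Junb, Jund, Fos, Fosb, Fosl2 and Ier3. Those of Jun, Fos and Fosl2 are shown, since Jun was the only AP-1 subunit called higher, Fos is the subunit that gave the family its name, and Fosl2 was the most abundant FOS message per length. Capitals mark the motif matches described next.
Jun: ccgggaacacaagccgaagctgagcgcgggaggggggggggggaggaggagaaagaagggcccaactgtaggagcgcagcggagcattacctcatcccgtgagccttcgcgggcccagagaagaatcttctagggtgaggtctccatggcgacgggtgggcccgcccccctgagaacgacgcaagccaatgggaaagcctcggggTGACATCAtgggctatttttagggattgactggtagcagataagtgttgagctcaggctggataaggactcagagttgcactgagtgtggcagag
Fos: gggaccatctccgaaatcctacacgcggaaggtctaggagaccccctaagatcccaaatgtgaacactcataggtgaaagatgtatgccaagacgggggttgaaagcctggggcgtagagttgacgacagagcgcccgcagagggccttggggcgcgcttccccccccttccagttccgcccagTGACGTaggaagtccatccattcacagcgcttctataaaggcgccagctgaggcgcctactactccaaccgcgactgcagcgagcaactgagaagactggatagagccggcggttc
Fosl2: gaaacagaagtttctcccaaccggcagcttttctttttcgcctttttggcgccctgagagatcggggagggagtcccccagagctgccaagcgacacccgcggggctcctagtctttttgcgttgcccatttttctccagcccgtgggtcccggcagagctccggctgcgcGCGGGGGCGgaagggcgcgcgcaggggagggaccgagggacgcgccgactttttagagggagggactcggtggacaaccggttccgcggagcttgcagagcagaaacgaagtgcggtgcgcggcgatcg
The Jun window is chr4:95052173-95052472 (minus strand), the Fos window chr12:85473640-85473939 (plus strand) and the Fosl2 window chr5:32136222-32136521 (plus strand). With the start counted as position 1 and no position 0, the capitals in Jun span positions -45 to -38 and match TGACNTCA, the spacing of a cyclic AMP response element and the form in which the Jun promoter is known to bind JUN and ATF2. Those in Fos span positions -66 to -61 and match the shorter TGACGT. Both patterns were added after the windows had been read, and 8.83% and 7.51% of the 32851 windows in the table hold them on either strand. The capitals in Fosl2 span positions -79 to -71 and match the EGR site GCGNGGGCG, which 5.55% of all windows hold. The Fosb window holds the same EGR site at positions -50 to -42. TGANTCA, the classical AP-1 site (7.81% of windows), TGACGTCA (1.79%), the E-box CACGTG (7.15%), the CArG box of serum response factor (1.63%) and the C/EBP-ATF element TGATGNAAT (0.965%) had no match in the 7 windows. The RefSeq start lay 1210 bases upstream of the count table's gene start for Jund and 671 bases inside the gene for Fosl2, and within 30 bases of it for the other 5, so the Jund and Fosl2 windows are those of other annotated starts. TGACNTCA includes TGACGTCA. Sites more than 250 bases before the start were not searched, and Fosl1, Egr1 and Myc had no window, so a motif without a match here may lie elsewhere. These matches say nothing of binding in these livers.

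Library totals ran from 12541465 to 19655235 counts, and 13706 genes had enough counts to be tested. Levels are CPM, counts relative to a library size that was scaled by TMM factors, which averaged 0.855 in Ctrl and 1.17 in Fam210aHKO. Fam210a itself stood at 119, 136 and 162 CPM in the 3 controls and at 31.7, 28.6 and 44.2 CPM in the 3 knockout libraries, a separation of the groups in the direction of the labels. The libraries carried hepatocyte transcripts: 8 marker messages summed to between 139232 and 215435 CPM in Ctrl and between 79310 and 99537 CPM in Fam210aHKO, with 0 markers undetected. Fam210aHKO replicate 1 stood apart for Lars2, which had 3080 CPM there and between 23.3 and 29.2 CPM in the other libraries. Some of the results that rest on that library are also given without it.

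Among the tested genes of the set, Myc, Egr1 and Jun rose in the knockout livers and none fell. Of the 10 genes, Fosb and Fosl1, were too low to test. Of the 8 tested, 3 were called higher and 0 lower (edgeR quasi-likelihood test, adjusted p under 0.05 over all tested genes), against 14.0% and 13.5% of all tested genes. The median log2 fold change of the 8 was 0.53, beside 0.02 for all tested genes. Passing the filter can depend on a high level in one group, so these figures describe the 8 genes only. Leaving out Fam210aHKO replicate 1, or any other single library, also gave 3 higher and 0 lower. With the replicate number as a block 5 of the 8 were higher, where 17.8% of all tested genes were. When plain library totals replaced TMM factors, 7 were higher, but so were 42.7% of all tested genes, whose median shifted by 0.45 on the log2 scale. Calls in either direction made up 27.5% of all tested genes with TMM, 35.7% with the block and 49.0% with library totals.

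**Figure D1:**
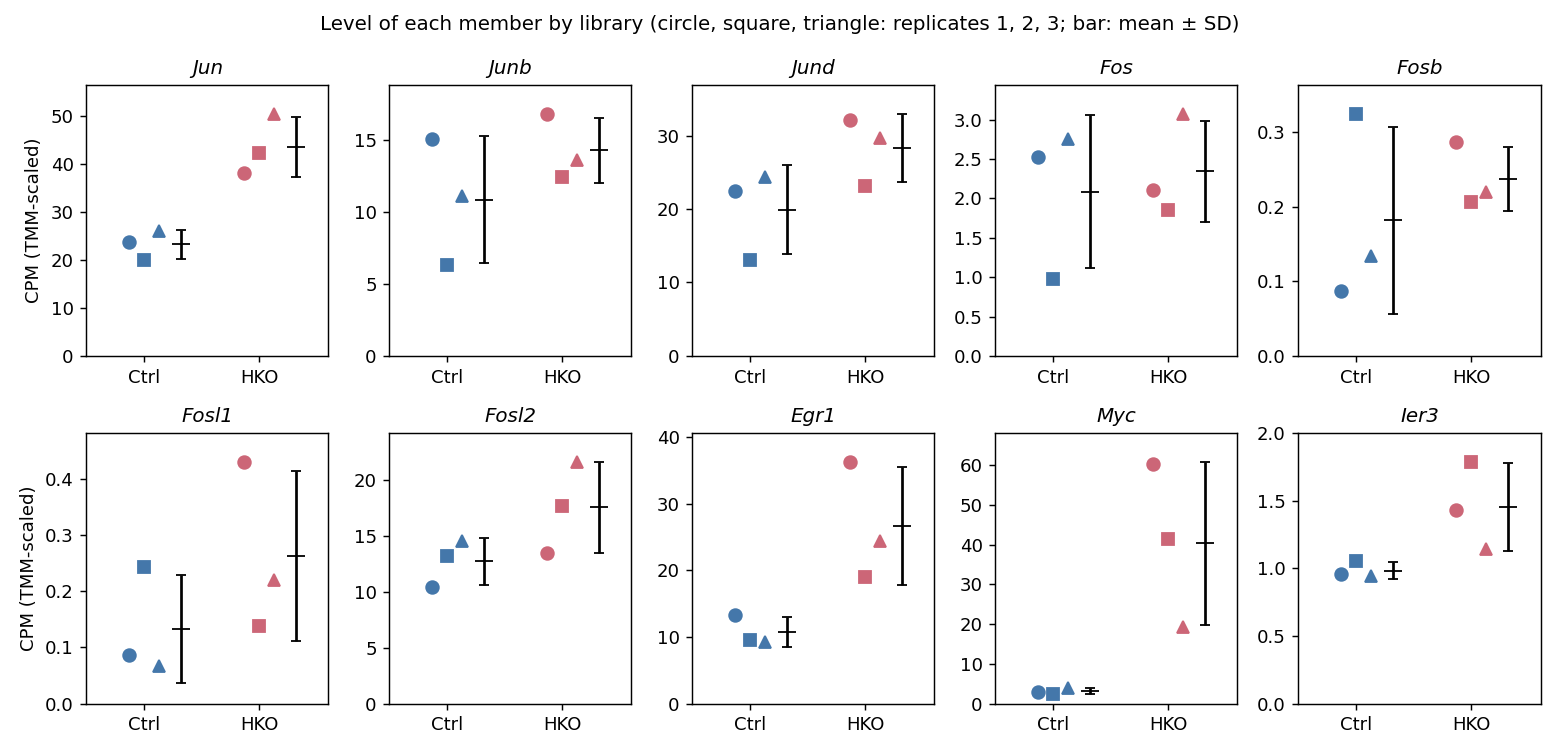
Level of each of the 10 genes in CPM (TMM-scaled, linear axis from 0) in 3 Ctrl and 3 Fam210aHKO (HKO) libraries; circles, squares and triangles are replicates 1, 2 and 3, and the black bars give mean ± SD. The groups are apart for Jun, Egr1, Myc and Ier3 and overlap for the other 6, and Myc spans 19.2 to 60.2 CPM within the knockout group.

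The JUN subunits supply the dimerization partner that every AP-1 complex needs. Jun, which encodes c-JUN and lies on chromosome 4 from 95049034 to 95052222 (mm10, minus strand), stood at 23.8, 20.0 and 26.0 CPM in Ctrl replicates 1 to 3 and at 38.3, 42.2 and 50.5 CPM in Fam210aHKO replicates 1 to 3. Every knockout library was above every control. The log2 fold change was 0.91 (SE 0.165; edgeR adjusted p = 0.0022), a 1.88-fold rise, and all 17 alternatives called it higher, with values from 0.78 to 1.35. Jun had the smallest relative spread of the 3 called genes, with coefficients of variation of 13.1% in Ctrl and 14.3% in Fam210aHKO.

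Junb, often an antagonist of c-JUN in growth control, had 15.1, 6.33 and 11.2 CPM in Ctrl and 16.8, 12.5 and 13.6 CPM in Fam210aHKO. Ctrl replicate 1 lay above 2 of the knockout libraries, and the difference was not called (log2 fold change 0.40, SE 0.274; edgeR adjusted p = 0.313). Jund, the subunit that resting tissue expresses most steadily, had 22.4, 13.0 and 24.3 CPM in Ctrl and 32.1, 23.1 and 29.7 CPM in Fam210aHKO. Ctrl replicate 3 lay above Fam210aHKO replicate 2, and the log2 fold change of 0.51 (SE 0.230) missed the threshold (edgeR adjusted p = 0.129). With the replicate block Jund was called higher (0.54, adjusted p = 0.0142). Library totals called both Junb and Jund higher (0.83, adjusted p = 0.0347, and 0.94, adjusted p = 0.0102). For both genes Ctrl replicate 2 was the lowest of all libraries, and without it their log2 fold changes were 0.11 and 0.26.

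The FOS subunits need a JUN partner, and per kilobase of gene length their summed level was far below that of the JUN subunits in every library. Fosl2, which encodes FRA2, had 10.4, 13.2 and 14.5 CPM in Ctrl and 13.4, 17.7 and 21.6 CPM in Fam210aHKO. Fam210aHKO replicate 1 lay below Ctrl replicate 3, and the log2 fold change of 0.46 (SE 0.210) was not called (edgeR adjusted p = 0.127). The replicate block called Fosl2 higher (0.45, adjusted p = 0.0336), as did library totals (0.92, adjusted p = 0.00461). Fos, the classical immediate early subunit, had 2.52, 0.974 and 2.76 CPM in Ctrl and 2.10, 1.86 and 3.07 CPM in Fam210aHKO. The groups overlapped throughout, and the log2 fold change was 0.17 (SE 0.378; edgeR adjusted p = 0.771). It was -0.17 without Ctrl replicate 2 and -0.07 without Fam210aHKO replicate 3, so no direction can be read for Fos.

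Fosb and Fosl1, whose products FOSB and FRA1 are typical of stimulated or transformed cells, were near the limit of detection. Fosb had 1, 4 and 2 counts in Ctrl replicates 1 to 3 and 6, 3 and 5 in Fam210aHKO replicates 1 to 3. Fosl1 had 1, 3 and 1 counts in Ctrl and 9, 2 and 5 in Fam210aHKO. A count of 3 corresponds to between 0.132 and 0.261 CPM. Without the filter on low counts neither was called (edgeR adjusted p = 0.748 and 0.474). At this depth only a large difference in either could have been detected.

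The make-up of each family was compared within libraries, which needs no scaling between them. Per kilobase of gene length, Jund exceeded Jun and Jun exceeded Junb in all 6 libraries. Jund made up 49.4% ± 3.28 of the JUN family level in Ctrl and 45.8% ± 3.72 in Fam210aHKO, Jun 31.3% ± 5.28 and 37.3% ± 5.36, and Junb 19.3% ± 4.05 and 16.9% ± 2.001 (mean ± SD, n = 3 per group, no test). The groups overlapped for each of these shares, so although Jun alone was called, its share within the family was not separated between the groups. In the FOS family Fosl2 exceeded Fos in all 6 libraries, in Ctrl replicate 1 only narrowly (48.7% against 48.4%). Fosb and Fosl1 never exceeded 9.77% of the family, on counts of at most 9 a library.

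Summed per kilobase, the JUN family was higher in each knockout library than in every control, with 27.5, 16.8 and 27.6 CPM per kb in Ctrl and 38.6, 32.5 and 39.5 in Fam210aHKO. These sums are a description with no test. The FOS family had 2.21, 1.98 and 2.73 CPM per kb in Ctrl and 2.58, 2.73 and 3.70 in Fam210aHKO, and the groups overlapped. The JUN level was thus between 8.50 and 14.9 times the FOS level in these 6 libraries.

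**Figure D2:**
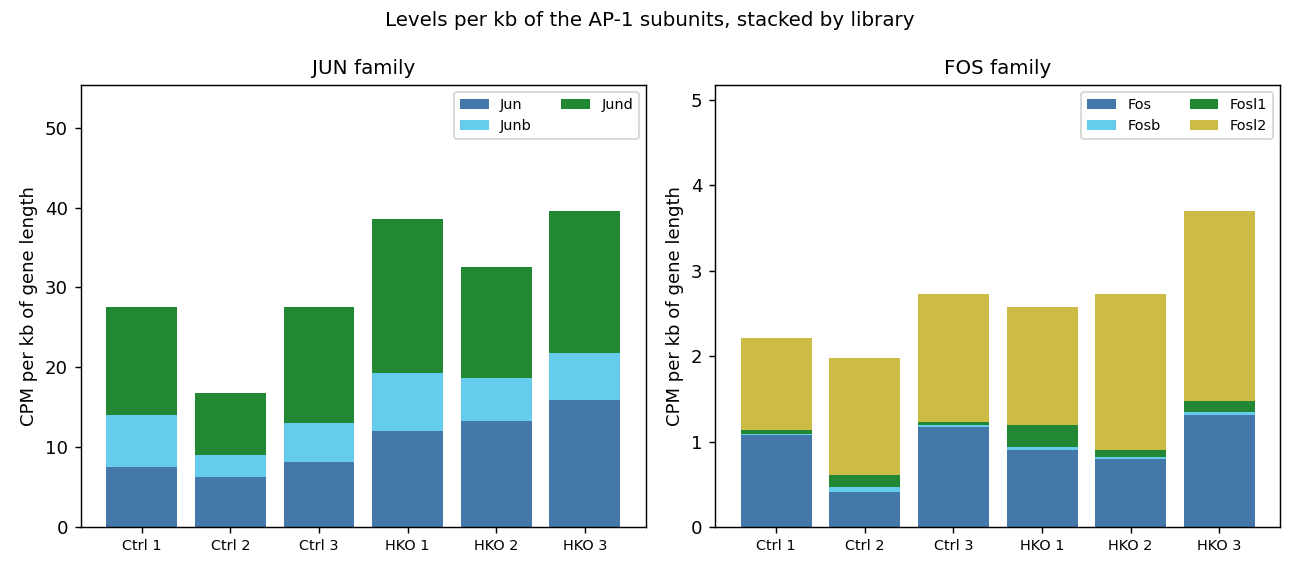
Stacked levels of the JUN family (left) and the FOS family (right) in CPM per kb of gene length, one bar per library, with linear axes from 0 that differ between the panels. Jund and Jun form most of the JUN bars, Fosl2 and Fos most of the FOS bars, and Ctrl 2 has the lowest bar in both families (16.8 and 1.98).

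Of the genes outside AP-1, Myc changed by far more than the others. Myc lies on chromosome 15 from 61985391 to 61990374 (mm10, plus strand) and had 2.96, 2.44 and 3.90 CPM in Ctrl and 60.2, 41.4 and 19.2 CPM in Fam210aHKO. The lowest knockout library was well above the highest control, but the knockout libraries spread widely among themselves (coefficient of variation 51.0%). The log2 fold change was 3.69 (SE 0.380; edgeR adjusted p = 6.2e-05), a 12.9-fold rise that ranked 146 from the top of the 13706 tested genes. Without Fam210aHKO replicate 1 the log2 fold change was 3.26 (adjusted p = 2.38e-05).

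Pvt1, a long noncoding RNA gene that starts 47611 bp downstream of Myc on the same strand, was looked up because of its position. It had 0.522, 0.812 and 1.28 CPM in Ctrl and 5.64, 5.92 and 3.33 CPM in Fam210aHKO, a log2 fold change of 2.46 (SE 0.365; edgeR adjusted p = 0.000628). Fam210aHKO replicate 3 was the lowest of the knockout libraries for Pvt1, as it was for Myc.

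Egr1, the zinc finger factor that serum response factor and ERK signalling switch on, lies on chromosome 18 from 34859823 to 34864984 (mm10, plus strand). It had 13.3, 9.50 and 9.28 CPM in Ctrl and 36.3, 19.0 and 24.5 CPM in Fam210aHKO. The groups did not overlap, and the log2 fold change was 1.32 (SE 0.247; edgeR adjusted p = 0.00258), a 2.49-fold rise. Without Fam210aHKO replicate 1, its highest library, the value was 1.01 (adjusted p = 0.00663). Egr1 and Myc were called higher in all 17 alternatives, with log2 fold changes from 1.01 to 1.77 and from 2.90 to 4.14.

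Ier3 had 0.957, 1.06 and 0.941 CPM in Ctrl and 1.44, 1.79 and 1.14 CPM in Fam210aHKO. Every knockout library was above every control, but on counts of only 11 to 30 a library, and the log2 fold change of 0.54 (SE 0.339) was not called (edgeR adjusted p = 0.264). Library totals called it higher (0.997, adjusted p = 0.0311). With Ier3, the groups did not overlap for 4 of the 8 tested genes, all higher in Fam210aHKO, where 22.0% of all tested genes were higher and 20.7% lower without overlap.

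**Figure D3:**
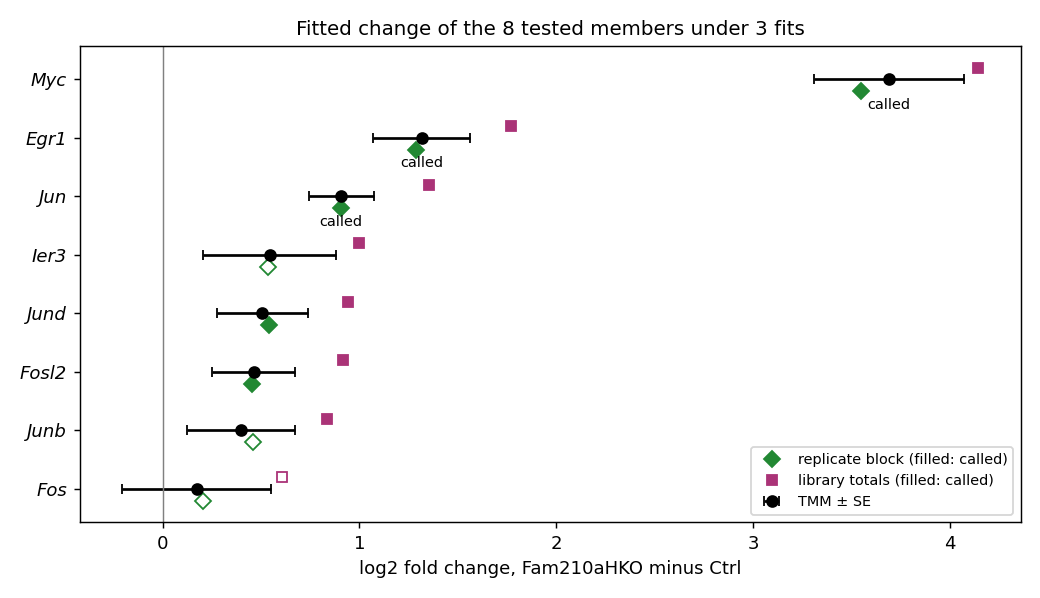
Fitted log2 fold change (Fam210aHKO minus Ctrl) of the 8 tested genes: black circles with SE bars for TMM scaling, marked where called, and diamonds for the replicate block and squares for library totals, filled where called. Myc, Egr1 and Jun are called in all 3 fits, Jund and Fosl2 in the block and library total fits, and library totals move every gene to the right.

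The order of the genes by level per kilobase changed with the rise of Myc. In Ctrl it ran Jund (11.9 ± 3.64 CPM per kb), Jun (7.30 ± 0.959), Junb (4.73 ± 1.91), Egr1 (2.38 ± 0.505), Fosl2 (1.31 ± 0.216), Myc (1.14 ± 0.273), Fos (0.886 ± 0.412) and Ier3 (0.870 ± 0.0548), with Fosl1 and Fosb under 0.1. Among these first 8 genes the libraries of every pair of neighbours overlapped, except Egr1 and Fosl2, and Ier3 stood apart from Fosl1. In Fam210aHKO it ran Jund (17.0 ± 2.78), Myc (14.8 ± 7.56), Jun (13.7 ± 1.95), Junb (6.22 ± 0.986), Egr1 (5.93 ± 1.97), Fosl2 (1.81 ± 0.421), Ier3 (1.29 ± 0.287) and Fos (0.997 ± 0.273), where neighbours among these 8 overlapped except Jun with Junb and Egr1 with Fosl2. By group means Myc thus moved from the level of Fosl2 to that of Jun and Jund, but the libraries differed. In Fam210aHKO replicates 1 and 2 it was the most abundant of the 10 genes per kilobase, at 22.2 and 15.2 CPM per kb. In Fam210aHKO replicate 3 it had 7.06 CPM per kb, beside 15.8 for Jun, 17.8 for Jund and 5.93 for Junb.

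The 3 called genes did not follow the same order over the knockout libraries. Myc had its highest level in replicate 1 and its lowest in replicate 3, Jun had its highest level in replicate 3 and its lowest in replicate 1, and Egr1 was highest in replicate 1 and lowest in replicate 2. Atf3, a stress-induced JUN partner, was likewise highest in replicate 1 and lowest in replicate 3, with 1.30, 1.30 and 1.68 CPM in Ctrl and 130, 65.97 and 39.9 CPM in Fam210aHKO (log2 fold change 5.77, SE 0.425; edgeR adjusted p = 8.45e-06). Its value was 5.18 (SE 0.276) without Fam210aHKO replicate 1. Libraries numbered 2 were often low. Ctrl replicate 2 was the lowest control for 5 of the 8 tested genes and for 22 of 34 other immediate early genes (64.7%), beside 36.3% of all tested genes. Fam210aHKO replicate 2 was the highest knockout library for 1 of the 8 and for 0 of those 34, beside 29.4% of all tested genes. Nothing in the labels sets Ctrl replicate 2 apart. The genotype label of Fam210aHKO replicate 2, like that of replicate 3, names another gene number.

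**Figure D4:**
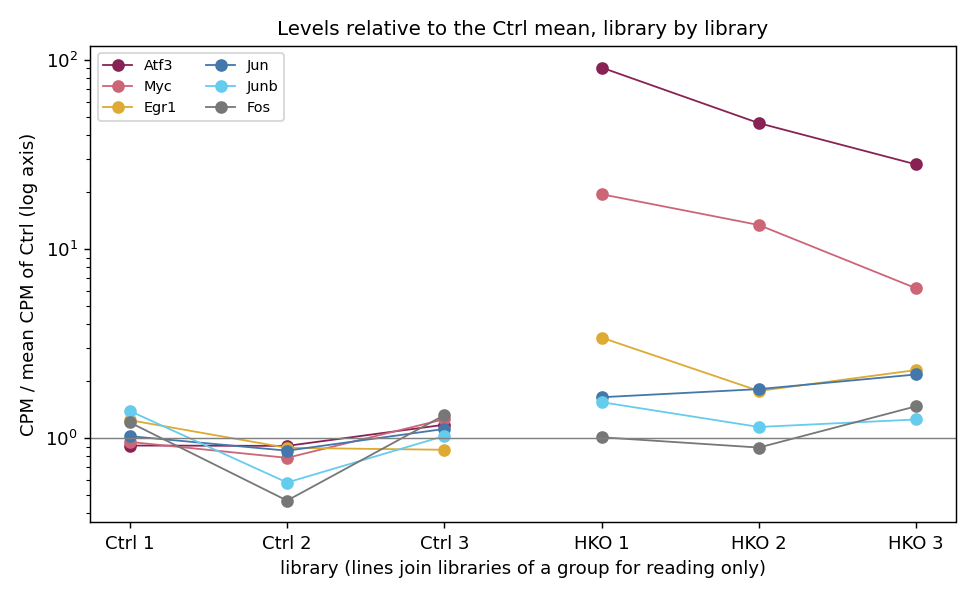
Level of Atf3, Myc, Egr1, Jun, Junb and Fos in each library divided by the gene's Ctrl mean, on a log axis; lines join libraries of a group only to ease reading. Atf3 and Myc stand highest in HKO 1 and lowest in HKO 3, Jun has the opposite order, and Junb and Fos dip in Ctrl 2.

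Other genes of the pathway are given from lists drawn up by function, but with earlier results of these data known. The counts cover only members that passed the filter, which a high level in one group can decide, and they describe those genes only. Of 34 tested immediate early genes outside the set (8 more were too low), 12 rose, 5 fell and 17 were not called (median 0.26 on the log2 scale). These are 35.3% higher and 14.7% lower, beside 14.0% and 13.5% of all tested genes. The stress-responsive factor Klf6 rose from 12.6, 9.58 and 12.4 to 51.1, 45.5 and 41.8 CPM, and Ier5 from 4.96, 3.65 and 4.50 to 15.0, 15.1 and 16.4 CPM. Errfi1, a feedback inhibitor of the EGF receptor, fell from 1352, 1212 and 1663 to 553, 419 and 680 CPM, and Phlda1 fell from 30.1, 9.99 and 48.7 to 6.51, 3.10 and 6.45 CPM. Dusp1, the phosphatase that shuts off p38 and JNK, had 49.6, 30.7 and 49.5 CPM in Ctrl and 22.5, 18.3 and 34.9 CPM in Fam210aHKO. The groups overlapped, but it was called lower (log2 fold change -0.78, edgeR adjusted p = 0.0413). That call ended with library totals (adjusted p = 0.304), with upper-quartile scaling and with limma on log2(FPKM + 1). It also ended without Ctrl replicate 1 or 3 or Fam210aHKO replicate 1 or 2. Ier2 had 21.3, 10.6 and 21.8 CPM in Ctrl and 14.2, 12.2 and 15.7 CPM in Fam210aHKO and was not called, but was lower without Ctrl replicate 2 (log2 fold change -0.63, adjusted p = 0.0263). Without Fam210aHKO replicate 1, 11 of these genes rose, and without Ctrl replicate 2 or Fam210aHKO replicate 3, 9 did. Both limma fits on FPKM had 10 higher. Without Ctrl replicate 1, Ctrl replicate 3 or Fam210aHKO replicate 2, 3 fell. With library totals 18 rose and 2 fell (52.9% higher, beside 42.7% of all tested genes). With the replicate block 14 rose and 6 fell (41.2% higher, beside 17.8% of all tested genes higher and 18.0% lower).

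The close relatives of Egr1 were too low to test: Egr2 stood between 0.0870 and 0.244 CPM in Ctrl and between 0.344 and 0.622 CPM in Fam210aHKO, Egr3 at or under 0.175 CPM in every library, and Egr4 had 0 counts throughout. Of the 10 tested AP-1 dimer partners 3 rose, namely Atf3, Maff and Mafk (30.0%, beside 14.0% of all tested genes). Most of the others were not called. Maff and Mafk encode small MAF proteins, which lack a transactivation domain. Maff rose from 3.04, 0.974 and 1.28 to 8.42, 4.88 and 6.10 CPM and Mafk from 15.2, 13.2 and 16.1 to 28.2, 34.7 and 26.8 CPM. Atf3 and Maff stand in both of these lists.

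For the signalling chain upstream, 1 of 29 kinases, RAS proteins, receptors and serum response factor partners rose, 3 fell and 25 were not called (median -0.13). That is 86.2% not called and 10.3% lower, beside 72.5% and 13.5% of all tested genes. Egfr, the EGF receptor, fell from 346, 365 and 667 to 124, 159 and 130 CPM (log2 fold change -1.74, SE 0.247; edgeR adjusted p = 0.000483). The p38 kinase gene Mapk14 fell from 85.6, 96.2 and 99.1 to 66.3, 67.7 and 71.2 CPM, a call that ended with library totals (adjusted p = 0.996), without the filter and without Ctrl replicate 3 or Fam210aHKO replicate 1 or 2, and Mapk7, which encodes ERK5, rose from 2.09, 2.11 and 1.68 to 3.40, 3.65 and 3.33 CPM. The call of Mapk7 ended with DESeq2 and without any of the Ctrl replicates or Fam210aHKO replicates 1 and 2, and without Ctrl replicate 3, Fam210aHKO replicate 1 or Fam210aHKO replicate 2 only 1 member fell. With library totals 10 members rose (34.5%, beside 42.7% of all tested genes) and 1 fell. With the replicate block 2 rose and 4 fell (6.90% higher, beside 17.8% of all tested genes higher and 18.0% lower).

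Among 14 tested feedback genes of ERK and JNK signalling, which these pathways induce and which then restrain them, 4 rose and 0 fell (median 0.38), which is 28.6% higher beside 14.0% of all tested genes. The phosphatase gene Dusp4 rose from 1.48, 1.54 and 2.55 to 15.8, 5.92 and 7.54 CPM and Dusp8 from 1.04, 1.30 and 1.34 to 4.31, 7.71 and 11.9 CPM. Without Fam210aHKO replicate 1 the log2 fold change of Dusp4 went from 2.38 to 1.82, still called higher. Dusp5 and Spry1 were the other members called higher, Spry1 only just under the threshold. The count was 3 with median-of-ratios scaling, both limma fits on FPKM and the legacy quasi-likelihood test. It was also 3 without Ctrl replicate 1 or without Fam210aHKO replicate 2 or 3. Without the filter, or without Ctrl replicate 2, it was 5. With library totals 7 of the 14 rose (42.7% of all tested genes did), and with the replicate block 6 rose (42.9%, beside 17.8%).

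Of 25 genes known as AP-1 targets 8 were too low to test. Of the other 17, 7 rose and 0 fell (41.2% higher, beside 14.0% of all tested genes), with a median of 0.89. Some of these passed the filter through the knockout libraries, as Areg and Mmp12 did, so the count and the median describe the tested genes only. Without Fam210aHKO replicate 1 the count was again 7. Areg, the growth factor amphiregulin, had 1 count in the 3 Ctrl libraries together and 993 in Fam210aHKO, where it stood at 29.2, 13.5 and 8.16 CPM. The ratio of scaled totals was 660, with a 95% exact binomial interval from 118 to 26087 that covers counting error only. Leaving out Fam210aHKO replicate 1 gave a ratio of 396 (interval 70.6 to 15679). Mmp12, the macrophage elastase, rose from 0.435, 0.406 and 0.202 to 6.12, 7.43 and 9.12 CPM. With library totals 15 rose (88.2%, beside 42.7% of all tested genes), and 8 rose with the replicate block (47.1%, beside 17.8%). With the replicate block, without the filter, or without Ctrl replicate 3 or Fam210aHKO replicate 2, 1 member fell.

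MYC binds DNA with its partner MAX. Max had 20.1, 20.2 and 20.9 CPM in Ctrl and 33.6, 27.4 and 23.0 CPM in Fam210aHKO, without overlap, but was not called (log2 fold change 0.46, SE 0.169; edgeR adjusted p = 0.0667). Library totals (0.91, adjusted p = 0.00217), the replicate block (0.44, adjusted p = 0.04001) and leaving out Fam210aHKO replicate 3 (0.58, adjusted p = 0.0266) called it higher, and the other alternatives did not. Of the other MYC family genes Mycl had between 12.2 and 16.9 CPM in Ctrl and between 15.7 and 24.0 CPM in Fam210aHKO and was not called, although library totals and the replicate block called it higher (adjusted p = 0.00727 and 0.0280), and Mycn stayed under 1 CPM. Of 12 tested MYC partners and antagonists 1 rose (Mxd3; 8.33%, beside 14.0% of all tested genes) and 1 fell (Mlxipl, the glucose sensor ChREBP, from 84.8, 56.0 and 63.2 to 26.4, 15.1 and 33.7 CPM). The call of Mxd3, at 0.261 to 1.53 CPM, ended with DESeq2 and without any of Ctrl replicates 1 and 3 and Fam210aHKO replicates 1 and 2; with the replicate block 3 rose and 2 fell, with library totals 6 rose and 1 fell, and without Fam210aHKO replicate 3 the counts were 2 and 3.

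Of 30 genes known as MYC targets, mostly of ribosome production and nucleotide synthesis, 22 rose, 0 fell and 8 were not called, with a median of 0.74 (73.3% higher, beside 14.0% of all tested genes). Cad, which encodes the enzyme of the first steps of pyrimidine synthesis, rose from 7.91, 5.44 and 7.26 to 30.7, 19.5 and 20.2 CPM. Srm, spermidine synthase, rose from 19.6, 15.8 and 16.5 to 66.4, 59.6 and 37.0 CPM. Without Fam210aHKO replicate 1 the list had 17 members higher, where 1475 of 13895 tested genes were. Without Ctrl replicate 3 it had 14, where 1339 of 14023 were. With the replicate block it had 24 (80.0%, beside 17.8% of all tested genes), and with library totals 26 (86.7%, beside 42.7%). A single member fell with DESeq2, with the replicate block and without Ctrl replicate 2.

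**Figure D5:**
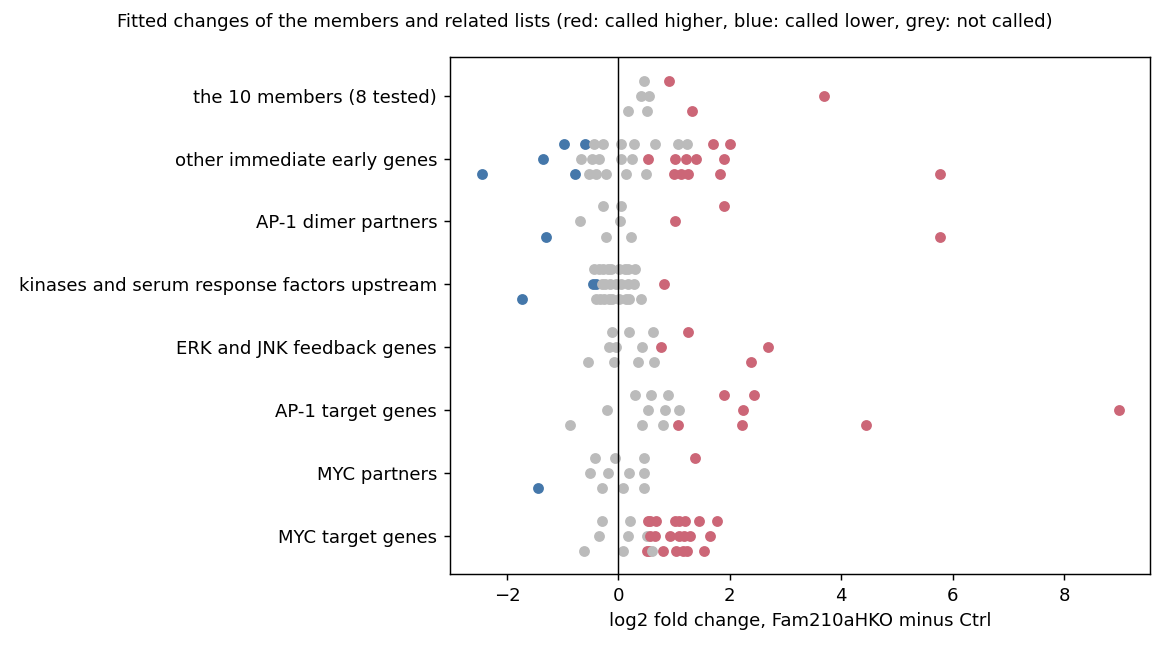
Fitted log2 fold change (Fam210aHKO minus Ctrl, TMM scaling) of each tested gene of the set and of 7 related lists; points are spread vertically for reading, red and blue are called higher and lower and grey is not called. The MYC target list has 22 red points of 30 and the upstream list 25 grey points of 29; the point farthest right is Areg, whose fitted value depends on the prior count because Ctrl had 1 count.

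Summed markers of other liver cells were apart between the groups for some lists and overlapped for others. Markers of monocytes and lipid-associated macrophages (10 genes, 4 of 9 tested called higher) summed to between 116 and 128 CPM in Ctrl and between 130 and 215 CPM in Fam210aHKO, and stellate cell markers (8 genes, 2 called higher) to between 174 and 186 and between 190 and 377 CPM. Kupffer cell, neutrophil, lymphocyte, cholangiocyte and sinusoidal endothelial sums overlapped between the groups, from 482 to 652 against 423 to 754 CPM, 5.22 to 5.44 against 4.54 to 7.43, 4.95 to 6.12 against 3.65 to 5.44, 15.1 to 18.1 against 15.0 to 34.1, and 312 to 416 against 209 to 333 CPM. Among their genes the Kupffer cell marker Marco and the cholangiocyte marker Epcam were called higher and the sinusoidal markers Stab2 and Clec4g lower. Every marker had counts in at least 1 library. Of the 8 hepatocyte markers 5 were called lower (62.5%, beside 13.5% of all tested genes). The calls higher were 44.4% of the tested macrophage markers and 25.0% of the stellate markers, beside 14.0% of all tested genes. Single genes higher without overlap made up 22.0% of all tested genes, and the sums were not tested. In Fam210aHKO replicates 1, 2 and 3 the macrophage sums were 130, 183 and 215 CPM and the stellate sums 190, 219 and 377 CPM. Jun was lowest in replicate 1 and highest in replicate 3, as these sums were. So were the hepatocyte (79310, 81342 and 99537 CPM), Kupffer cell (423, 593 and 754) and sinusoidal endothelial sums (209, 259 and 333). The neutrophil, lymphocyte and cholangiocyte sums had other orders, so the order of Jun singles out no cell type. Myc was highest in replicate 1 and lowest in replicate 3, and Egr1 was highest in replicate 1. The part of other cells in these results was not tested, and in whole liver more cells of a type cannot be told apart from more RNA per cell.

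Counting could blur some of these genes. On the opposite strand, GENCODE M21 places Junos over 689 bp of Jun, Prdx2 over 351 bp of Junb, Gm11175 over 919 bp of Jund and Ccdc85b, outside it in the count table's coordinates, over 2767 bp of Fosl1, and the sources used here do not say whether counting used strand. Junos had between 2 and 12 counts a library and Gm11175 had 0, whereas Prdx2 stood between 85.7 and 110 CPM, well above Junb.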

How the data were processed

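Poly(A) RNA of 6 liver libraries was sequenced, 3 per group. One table of the authors holds unnormalized counts of reads for each gene, and a second holds FPKM that the authors scaled by the listed gene length and a library size of 55.4% to 86.3% of the count total, a choice the sources used here do not explain. The submitters' processing notes name STAR, featureCounts, FastQC, Trimmomatic and DESeq2 and the build mm10, without versions; strand and the treatment of reads with several hits are not stated there. The genotype label of Fam210aHKO replicates 2 and 3 names other gene numbers, so groups follow the titles.

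Genes were kept by filterByExpr (minimum count 10), scaled by TMM and tested with group alone in edgeR 4.0.16 (R 4.3.3; quasi-likelihood F test of edgeR 4, two-sided), and p-values were adjusted by Benjamini-Hochberg over 13706 genes. SE is the absolute log2 fold change over the square root of F. CPM per kb is TMM-scaled CPM over gene length. Library totals of 12541465 to 19655235 counts put 3 counts at 0.132 to 0.261 CPM, and limits of this kind cover counting error only. The common biological coefficient of variation was 0.196. The fit was tested on simulated data.

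Same-numbered libraries had weakly correlated deviations from their group means (0.245, 0.182 and 0.155, with other pairs from -0.141 to -0.0262). The numbers may thus pair the samples, but the labels do not say what a number means, and the main fit left it out. A fit with the replicate block is given for the 10 genes where it changed a call and as counts for the lists. Other alternatives were median-of-ratios, upper-quartile and library total scaling, leaving the filter out, keeping genes above 1 CPM in 3 libraries, limma-voom, DESeq2 1.42.0 and limma on log2(FPKM + 1) and log2(FPKM + 0.1) (limma 3.58.1), leaving out each library and, added after seeing the data, the legacy quasi-likelihood test. The 10 genes and the lists were chosen with earlier results of these data known. Named from each list were the 2 called members of smallest p in each direction, plus Ier2, Ier5, Egr2, Egr3, Egr4, Atf3, Maff, Max, Mycn, Mycl and Dusp1; further members called are named without values. A result among the AP-1 dimer partners is not reported here. Pvt1, the antisense genes and Lars2 were added later. Ccn1, Ccn2, Mrtfa, Mrtfb and Tf were matched by older symbols.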

Additional observations from a re-analysis of the deposited data

How the results depend on the processing

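Myc, Egr1 and Jun were called higher in all 17 alternatives. Junb, Jund, Fosl2 and Ier3 kept a positive sign in all of them, and Fos, at -0.17 to 0.42 without single libraries, turned to -0.17 without Ctrl replicate 2 and to -0.07 without Fam210aHKO replicate 3, never past the threshold. The count of genes of the set called higher was 3, but 7 with library totals and 5 with the replicate block, and 3 throughout when single libraries were left out. Over all tested genes library totals gave 5846 higher and 868 lower in place of 1922 and 1852. Fam210a was lower in every alternative (log2 fold change from -2.20 to -1.87 without single libraries). The replicate block changed no call of the 10 genes other than those of Jund and Fosl2. Family shares of raw counts, not divided by length, differed from those per length: Jun 44.0% and 50.7% in Ctrl and Fam210aHKO, Jund 36.4% and 32.7%, Fos 13.9% and 11.5%, Fosl2 84.0% and 85.9%, and Fosl1 1.404% in Fam210aHKO. Depth limits Fosb, Fosl1 and Ier3.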
